A study of Mus musculus with 6 samples.

Results

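The genes described here are 34 genes of sterol metabolism in cultured mouse microglia: the enzymes that build cholesterol, the SREBP transcription factors with the proteins that hold or release them, the LXR receptors with their targets, and the genes of sterol export, storage and transport. They were picked by symbol, as a list of names, and all 34 were found among 48005 gene entries and passed the filter on low counts, as did 16605 entries in all. The microglia came from CD1 mice, and no transgene or deletion is named for either group. Of 6 samples, 3 were control cultures and 3 were treated with extracellular vesicles (EVs), the membrane-bound particles that cells release. The vesicles came from CD1 neural stem cells of the subventricular zone, grown as primary monolayers, and were collected through serial centrifugation. The labels name no dose, time or age and do not describe the control handling. Nor do they state that replicates are independent cultures, so p-values cover only the spread between these libraries, which may be technical.

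Cholesterol is built from acetyl-CoA through mevalonate, squalene and a run of sterol intermediates. When sterols in the endoplasmic reticulum are scarce, Scap carries the SREBP factors to the Golgi, where they are cut and freed to switch on genes of sterol and fatty acid synthesis; when sterols are plentiful, the Insig proteins keep Scap back. LXR receptors answer oxysterols, which are oxidised cholesterol, and switch on export pumps such as Abca1 and Abcg1. Microglia take up cell debris and myelin, which are rich in cholesterol, and pass that sterol on through lysosomal hydrolysis, re-esterification and export.

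A few promoter stretches are shown because the 2 starts of Srebf1 and the 3 genes that share an LXR-type repeat gave different readings. The sequences come from the RefSeq promoter table of GRCm38.p6, which held 28 of the 34 genes, each window running from 250 bases before to 50 bases after a start. All are written 5′ to 3′ on the strand of the gene and end before the start. For the internal Srebf1 start, Abca1 and Fasn the capitals mark the repeat TGACCGNNNNTAACCC, and for that Srebf1 start also the NF-Y box CCAAT read on the opposite strand. For the upstream Srebf1 start they mark the GC box GGGCGG on either strand, and for Hmgcs1 the sterol regulatory element TCACNCCAC and an NF-Y box on the opposite strand.
Srebf1 internal start (chr11:60210472-60210721, minus strand): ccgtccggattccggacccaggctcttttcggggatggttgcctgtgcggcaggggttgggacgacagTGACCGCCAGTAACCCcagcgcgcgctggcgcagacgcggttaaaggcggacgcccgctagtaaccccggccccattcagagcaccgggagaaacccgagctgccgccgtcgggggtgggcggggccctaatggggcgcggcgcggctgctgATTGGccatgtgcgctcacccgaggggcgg
Srebf1 upstream start (chr11:60220628-60220877, minus strand): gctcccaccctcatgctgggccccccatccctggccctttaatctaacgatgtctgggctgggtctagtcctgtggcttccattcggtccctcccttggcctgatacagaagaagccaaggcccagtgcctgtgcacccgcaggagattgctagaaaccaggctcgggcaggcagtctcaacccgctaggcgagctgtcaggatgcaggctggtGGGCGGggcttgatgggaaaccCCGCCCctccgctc
Abca1 (chr4:53159921-53160020, minus strand): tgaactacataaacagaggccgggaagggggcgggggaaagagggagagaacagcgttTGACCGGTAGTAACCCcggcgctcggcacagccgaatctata
Fasn (chr11:120824698-120824797, minus strand): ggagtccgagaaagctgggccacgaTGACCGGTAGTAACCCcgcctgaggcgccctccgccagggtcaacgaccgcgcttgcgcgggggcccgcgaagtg
Hmgcs1 (chr13:119690151-119690250, plus strand): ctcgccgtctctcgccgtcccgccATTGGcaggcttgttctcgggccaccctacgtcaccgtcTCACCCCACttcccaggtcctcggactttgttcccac

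The repeat, written from the internal Srebf1 promoter, where it is a known LXR element, matched 3 of 32851 promoters on either strand (0.00913%). They were those of Srebf1, Abca1 and Fasn, with the first base of the match 182, 67 and 225 bases before the start. The sterol regulatory element was found in 1.24% of all promoters and, among the members in the table, in that of Hmgcs1 alone (3.57%). The NF-Y box stood in 37.4% of all promoters and in 23 of the 28 members' (82.1%), among them 7 of 9 that were higher and 12 of 14 that were lower after EV treatment. The GC box stood in 35.7% of all and in 24 members, the E-box CACGTG in 7.15% of all and in 6 members, and the LXR repeat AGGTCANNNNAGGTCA in 0.0152% of all and in no member window. The shares of all promoters are over single windows. A member was counted where any of its windows matched, and some members, such as Srebf1, have several windows. The member shares are thus not like for like with those of all promoters. A match describes the letters only.

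Between 109744701 and 162544804 counts fell on the exon bins of each library. Levels are given as CPM (each gene's counts scaled to a common library total) with library sizes scaled by TMM, and as RPKM where genes of different length are compared. A gene was called higher or lower where edgeR's quasi-likelihood test gave a Benjamini-Hochberg adjusted p under 0.05 over all entries. By that rule 33.0% of all entries tested were higher and 33.5% lower with EVs, so a call by itself says little about a gene list. The microglial markers summed to 4434 to 5767 CPM in control and 2881 to 3126 CPM in EV-treated libraries, with 8 of 12 lower and 1 higher; Cx3cr1 was at 226.1 to 394.1 CPM in control and 1.76 to 2.98 CPM with EVs, whereas Csf1r and Itgam passed no test. Astrocyte markers summed to 14.9 to 20.3 and 94.9 to 131.0 CPM, with 4 of 7 higher, chiefly Slc1a2 and Gja1. Aldh1l1, most of that sum in control, was lower (10.7, 15.3 and 14.2 CPM against 1.83, 2.29 and 1.04 CPM), and Gfap and Aqp4 were under 0.1 CPM on average in both groups. Endothelial markers summed to 4.68 to 6.04 and 24.6 to 35.1 CPM with Cldn5 near 0, and oligodendrocyte markers to 67.9 to 73.3 and 25.4 to 27.7 CPM, with Mbp and Cnp lower and Mog at 0 in every EV-treated library. Neural stem cell markers summed to 46.0 to 82.7 and 3.11 to 4.32 CPM, with Nes lower (77.8, 45.7 and 82.1 CPM in control and 2.33, 1.88 and 3.19 CPM with EVs) and Prom1 higher (0.0379 to 0.0867 and 0.630 to 1.13 CPM). Their part in the results below was not tested, and fewer cells of a type and less RNA per cell cannot be told apart in such libraries.

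Of the 34 genes, 10 were higher with EVs (29.4%, against 33.0% of all entries) and 17 were lower (50%, against 33.5%), while 7 passed no test. The groups did not overlap in 28 of them (82.4%, against 71.3% of all entries). The median log2 fold change was -0.41 over the 34 genes and -0.02 over all entries, but the median absolute value was 0.81 in both. The pathway did not move as 1 block. The 2 genes with the greatest rise were Sqle and Insig2, and those with the greatest fall were Dhcr7, Ch25h and Lipa.

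**Figure D1:**
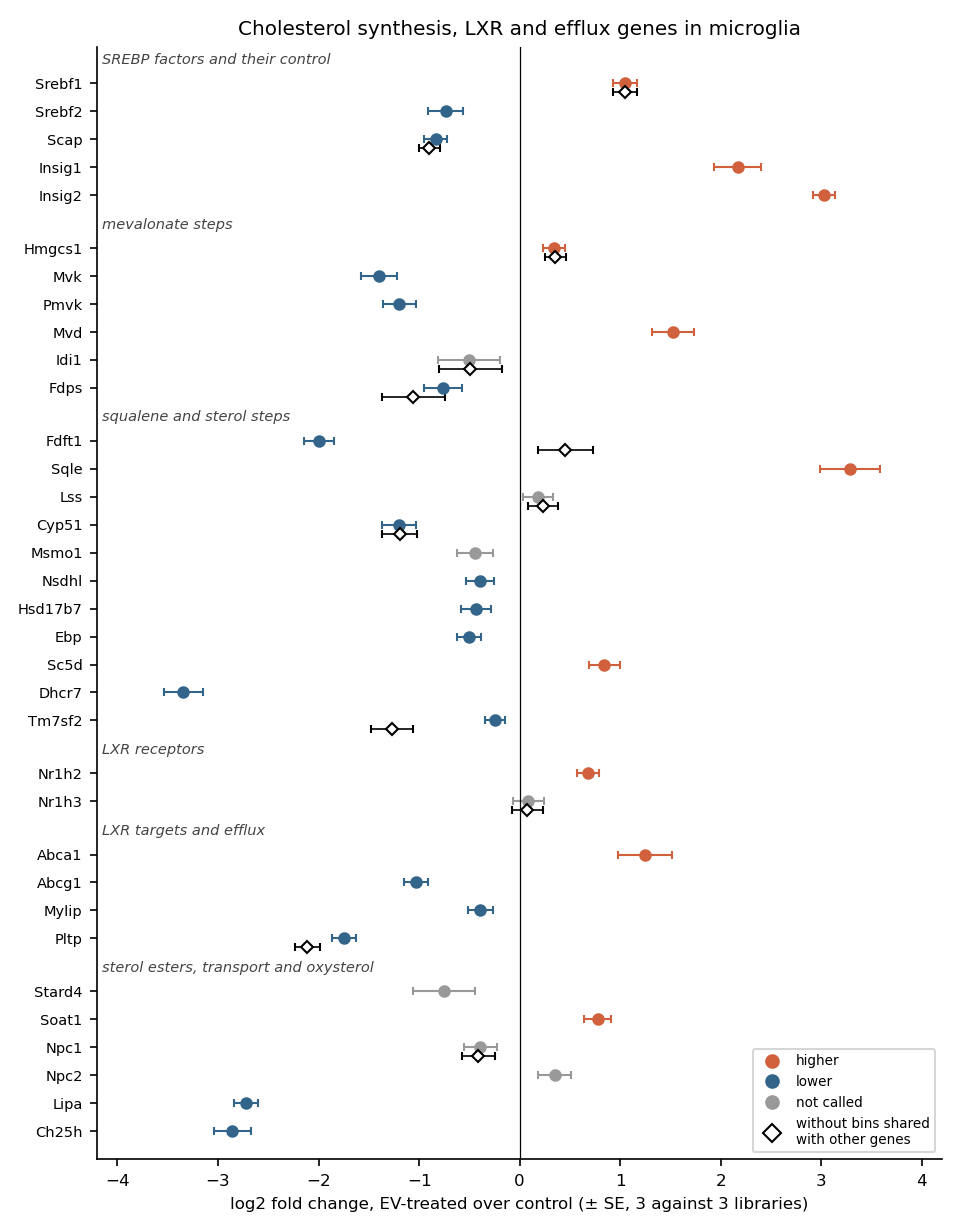
The log2 fold change (x axis) of each gene (rows, by role) with its SE, coloured by call, and white diamonds for the same estimate without exon bins that other genes share. Rises and falls stand side by side within most roles, and the diamond departs from its circle most for Fdft1 and Tm7sf2.

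The SREBP factors themselves moved in opposite directions. Srebf1, which encodes SREBP-1, a factor for fatty acid and sterol genes (chr11:60199089-60222581), was at 89.98, 92.79 and 89.56 CPM in control and 191.3, 162.1 and 210.3 CPM in EV-treated libraries. All EV-treated libraries lay above all controls, and the rise was 2.07-fold (log2 1.05 ± 0.12 SE, adjusted p = 3.36e-05). Srebf1 is counted with Mir6922, and bins shared with other genes held 6.35% to 7.27% of its counts. On exon bins free of other genes its log2 change was 1.05 ± 0.12 SE (adjusted p = 2.94e-05). Srebf2, which encodes SREBP-2, the factor most tied to cholesterol synthesis, was at 76.63, 93.55 and 53.9 CPM in control and 45.81, 41.6 and 47.04 CPM with EVs. It fell 1.67-fold with no overlap (log2 -0.74 ± 0.18 SE, adjusted p = 0.00455), although control C came close to the EV-treated libraries. Per length, Srebf1 over Srebf2 was thus 1.04, 0.878 and 1.47 in control and 3.70, 3.45 and 3.96 with EVs.

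Scap, the escort of SREBP, fell from 96.12, 87.65 and 84.95 CPM to 56.51, 48.02 and 46.11 CPM (log2 -0.83 ± 0.11 SE, adjusted p = 0.000114). Both of its retention partners rose. Insig1 went from 13.34, 21.06 and 10.47 CPM to 68.58, 74.13 and 58.72 CPM, 4.49-fold (log2 2.17 ± 0.23 SE, adjusted p = 2.43e-05). Insig2 (chr1:121304353-121332589) went from 26.07, 25.89 and 23.27 CPM to 203.6, 216.0 and 192.4 CPM, 8.14-fold (log2 3.02 ± 0.11 SE, adjusted p = 2.16e-08). No library of one group reached the other in any of these 3 genes. Per length, Insig1 over Insig2 was 0.575, 0.913 and 0.505 in control and 0.378, 0.385 and 0.343 with EVs. On the largest bin of each gene it was 0.606, 1.08 and 0.594 against 0.568, 0.582 and 0.464, a smaller gap (log2 difference -0.45). Summed over bins, the difference of its log2 value was -0.80, and that for Srebf1 over Srebf2 was 1.74. Each had an exact permutation p of 0.1 (2-sided), the smallest that 3 against 3 libraries can give, before any adjustment over the 3 ratios examined, so neither could pass 0.05.

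Srebf1 has an upstream start, whose transcript is known as 1a, and an internal start 10139 bases downstream, whose transcript is known as 1c and which is the one that LXR drives. By mean CPM these 2 first exons read in opposite directions. A further start still more upstream (first exon chr11:60222523-60222581) had few counts, 9.17 on average over the 6 libraries, at 0.0911, 0.197 and 0.0371 CPM in control and 0.0404, 0.0440 and 0.00781 CPM with EVs. Its groups overlapped, it was too low for the usage test, and it is not part of the shares below. The upstream first exon (chr11:60220453-60220604, Srebf1-201, 5′ UTR and coding) held 279, 277 and 396 counts in control and 611, 418 and 609 with EVs, or 2.13 ± 0.04 and 4.45 ± 0.68 CPM (SD, n = 3), 2.09 times as much. The internal first exon (chr11:60210336-60210465, Srebf1-207) held 42, 44 and 28 counts in control and 10, 9 and 20 with EVs, or 0.271 ± 0.107 and 0.105 ± 0.044 CPM (SD, n = 3). In CPM its groups overlapped, with control C at 0.1485 and EV-treated C at 0.1562. A fall in its level by itself was not tested. The counts of the internal exon are few, and its share of both first exons was 13.1%, 13.7% and 6.60% in control and 1.61%, 2.11% and 3.18% with EVs, without overlap (exact permutation p = 0.1, the smallest possible).

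In the test of exon usage across all bins, which asks whether a bin moved apart from the rest of its gene, 4.19% of 198361 bins passed. Of the members' bins 622 were tested and 24 passed (3.86%), 10 with higher and 14 with lower usage. The larger bin of the internal Srebf1 first exon (chr11:60210336-60210392) was among them, with 29, 26 and 20 counts in control against 6, 6 and 15 with EVs and a usage change of -2.29 on the log2 scale (adjusted p = 7.2e-05). Without any single library that change lay between -2.05 and -2.73 and kept its call. The upstream first exon moved with the gene (usage 0.01, adjusted p = 1). Coding bins at chr11:60206838-60207188, which lie in several transcripts, also overlap annotated first exons. Their usage changed by 0.04 to 0.17 on the log2 scale, without a call. Of 38 Srebf1 bins with at least 10 counts on average, 37 had a higher mean CPM with EVs. The exception was the larger bin of the internal first exon. Among bins with fewer counts, the other bin of the internal first exon and the exon of the most upstream start also had lower mean CPM with EVs (log2 ratios -1.53 and -1.82), as did 1 more bin (-0.24).

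**Figure D2:**
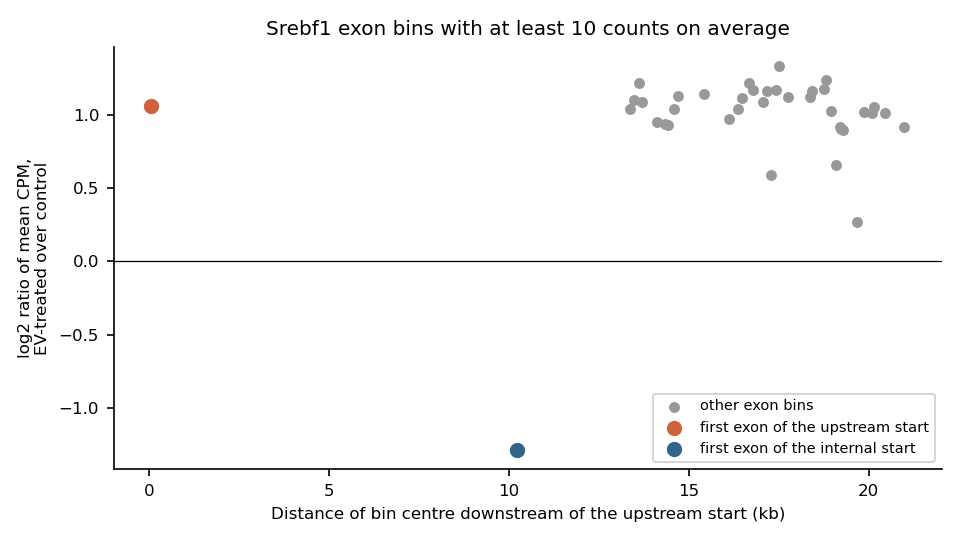
Log2 ratio of mean CPM, EV-treated over control (y axis), of each Srebf1 exon bin against its distance from the upstream start in kb (x axis), with both first exons coloured. The bin of the internal first exon lies at -1.28, and the other 37 bins lie above 0, up to 1.33.

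Among the enzymes from acetoacetyl-CoA to farnesyl diphosphate, 2 rose, 3 fell and 1 passed no test. The shares were 33.3% higher and 50% lower, against 33.0% and 33.5% of all entries. Mvd, which decarboxylates mevalonate diphosphate, rose from 8.02, 10.7 and 5.68 CPM to 25.21, 23.81 and 21.11 CPM (log2 1.53 ± 0.21 SE, adjusted p = 0.000122). Hmgcs1, which makes HMG-CoA, went from 35.75, 39.87 and 31.53 CPM to 44.92, 45.59 and 45.38 CPM (log2 0.34 ± 0.11 SE, adjusted p = 0.0181), but its log2 change was -0.02 when libraries were scaled by their totals alone. Its call also ended without control A, control C or EV-treated A (adjusted p = 0.0701, 0.0777 and 0.0691), with upper-quartile scaling (0.0934) and with no filter on low counts (0.111). The kinases between them went down: Mvk from 12.91, 17.12 and 11.66 CPM to 6.17, 4.71 and 4.91 CPM (log2 -1.40 ± 0.18 SE, adjusted p = 7.67e-05), and Pmvk from 7.79, 8.15 and 7.46 CPM to 3.16, 4.17 and 2.87 CPM (log2 -1.20 ± 0.17 SE, adjusted p = 0.000141). Hmgcs1 and Mvd thus read higher, and the kinases that act between them lower, each without overlap of the groups.

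Idi1, the isomerase, was low in both groups, at 1.81, 3.52 and 1.501 CPM in control and 1.81, 1.54 and 1.46 CPM with EVs (adjusted p = 0.175). Without control C its log2 change was -0.75, past the threshold (adjusted p = 0.0441). Fdps, the farnesyl diphosphate synthase, was counted as 1 entry with Rusc1 and Gm43738, which fell (log2 -0.76 ± 0.19 SE, adjusted p = 0.00589). Exon bins free of other genes held 9.52% to 12.9% of that entry in control and 8.17% to 10.7% with EVs. On these, Fdps was at 4.24, 6.87 and 2.87 CPM in control and 2.22, 2.83 and 1.71 CPM with EVs, again lower without overlap (log2 -1.06 ± 0.31 SE, adjusted p = 0.0129).

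Of the 11 genes from squalene to cholesterol, 2 rose and 7 fell (18.2% and 63.6%, against 33.0% and 33.5% of all entries). Among these 7, Fdft1 and Tm7sf2 were called on counts that lay mostly outside bins of their own. On free bins, given below, Fdft1 passed no test and Tm7sf2 was lower. Sqle, the epoxidase that is a rate-limiting enzyme of this arm (chr15:59315077-59331192), went from 9.10, 18.15 and 7.51 CPM to 121.7, 106.9 and 109.2 CPM, 9.73-fold higher (log2 3.28 ± 0.30 SE, adjusted p = 7.71e-06). Dhcr7, a reductase of the last step to cholesterol (chr7:143823145-143848410), went the other way, from 75.24, 48.68 and 58.38 CPM to 7.05, 4.91 and 5.96 CPM, 10.2-fold lower (log2 -3.35 ± 0.19 SE, adjusted p = 3.71e-07). The groups stood far apart in both. Sc5d, the desaturase that acts just before Dhcr7, rose from 8.05, 9.94 and 6.60 CPM to 14.2, 14.95 and 14.8 CPM (log2 0.84 ± 0.15 SE, adjusted p = 0.000883). Per length, Dhcr7 was at 10.4 RPKM and Sc5d at 1.68 RPKM in control, against 1.03 and 3.01 RPKM with EVs, so by RPKM the order of these neighbours in the pathway turned around. The Sc5d level is held down by its long, thinly covered last bin. Its other bins had medians of 6.33 CPM per kb in control and 11.8 with EVs. That is not the same measure as RPKM, and none was taken for Dhcr7, so the size of the gap is not settled.

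Cyp51, the lanosterol demethylase, fell from 13.98, 18.85 and 12.33 CPM to 6.78, 6.997 and 5.84 CPM (log2 -1.20 ± 0.17 SE, adjusted p = 0.000168). Smaller falls were seen for the isomerase Ebp (log2 -0.51, adjusted p = 0.00407), the dehydrogenase Nsdhl (log2 -0.39, adjusted p = 0.0278) and the ketoreductase Hsd17b7 (log2 -0.43, adjusted p = 0.0256). The calls of Nsdhl and Hsd17b7 were not kept in every fit with a library left out. Nsdhl lost its call without control B or any 1 EV-treated library (adjusted p = 0.103, 0.0623, 0.0527 and 0.0577) and on its largest bin (0.0876), and Hsd17b7 without control A or EV-treated B (adjusted p = 0.0855 and 0.0783). Msmo1, the methyl sterol oxidase, was at 29.19, 41.92 and 25.1 CPM in control and 24.85, 24.81 and 21.18 CPM with EVs, just short of the threshold (adjusted p = 0.0513), and passed it without control A or control C (adjusted p = 0.0491 and 0.00958). Lss, which closes the sterol rings, was at 14.54, 16.67 and 11.94 CPM in control and 14.72, 15.91 and 18.41 CPM with EVs (log2 0.19 ± 0.15 SE, adjusted p = 0.291), and its log2 change was -0.18 with libraries scaled by totals alone. Neither Msmo1 nor Lss is therefore counted as changed.

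Fdft1, the squalene synthase at the branch to sterols (chr14:63145153-63177793, minus strand), was read differently by its bins. Summed over them it was at 117.7, 109.5 and 79.73 CPM in control and 25.29, 26.96 and 24.86 CPM with EVs, and was called lower (log2 -1.99 ± 0.15 SE, adjusted p = 1.98e-06). Its last bin (chr14:63145153-63146968, 1816 bases) overlaps an exon of Ctsb, a lysosomal protease gene on the opposite strand, and held 93.8% to 96.5% of the entry's counts in control and 72.9% to 76.2% with EVs. Ctsb itself fell from 14040, 13020 and 12100 CPM to 8441, 8382 and 7819 CPM (log2 -0.67 ± 0.14 SE, adjusted p = 0.00169). No source used here states a strand setting for the counting, so reads of such partners cannot be told apart. On the 7 bins free of other genes Fdft1 was at 4.63, 6.78 and 2.80 CPM in control and 6.34, 7.31 and 5.93 CPM with EVs, with overlapping groups and no call (log2 0.46 ± 0.27 SE, adjusted p = 0.167). All 7 gained usage relative to the gene, by 2.34 to 2.65 on the log2 scale. The bin shared with Ctsb was thus the only Fdft1 bin with a lower mean CPM after EV treatment (log2 ratio -2.35, against 0.34 to 0.64 in the other bins).

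Tm7sf2, a sterol reductase, was counted with Vps51, Zfpl1 and Gm28374, and that entry moved little (log2 -0.25 ± 0.10 SE, adjusted p = 0.0482). Leaving out any single library ended the call (adjusted p from 0.0707 to 0.133), as did RLE scaling (0.083), DESeq2 (0.0764), a stricter count filter (0.0608) and the largest bin alone (0.12). The bins that belong to Tm7sf2 alone, 5.21% to 6.69% of the entry in control and 2.24% to 3.45% with EVs, were at 5.03, 6.89 and 4.87 CPM in control and 1.88, 2.37 and 2.76 CPM with EVs, lower without overlap (log2 -1.27 ± 0.21 SE, adjusted p = 0.000389). Over all 34 genes, 13 share or join exons with another gene. With such bins left out everywhere, an alternative chosen after seeing the data, 10 genes were higher and 17 lower. The 10 higher and 15 of the lower ones were the same as before. Fdft1 lost its call, Msmo1 and Stard4 came to be lower (adjusted p = 0.0439 and 0.0497), and Ch25h had no free bin. Msmo1 and Stard4 share no bin, so their own counts were the same in both fits. Their new calls reflect the changed set of entries in the fit, not bins left out of these genes. Over all entries 32.8% were higher and 33.3% lower in that setting.

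**Figure D3:**
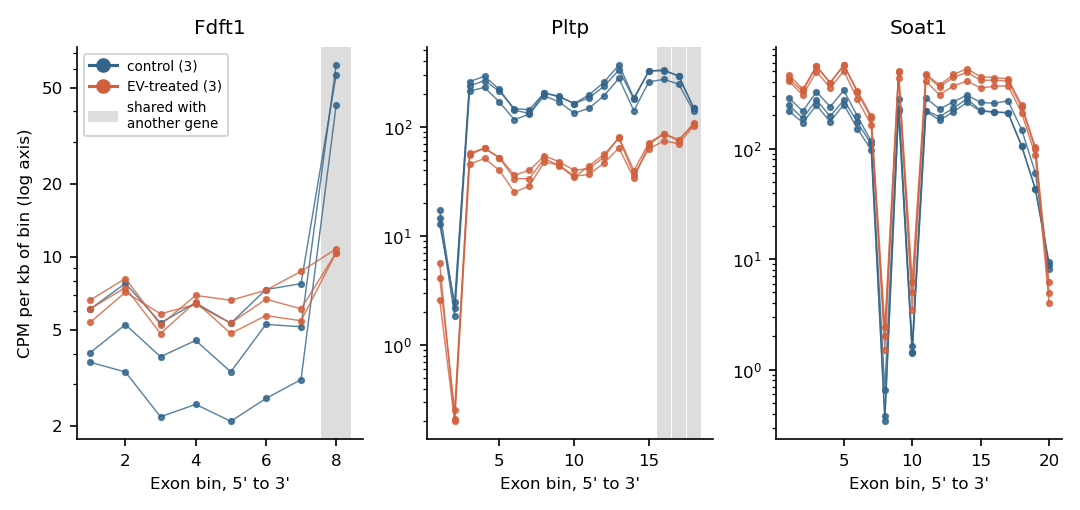
CPM per kb of bin (y axis, log) along the exon bins of Fdft1, Pltp and Soat1 in 5′ to 3′ order (x axis), 1 line per library, for bins of at least 50 bases and 50 counts on average, with bins that another gene shares in grey. In Fdft1 the control lines leave the EV-treated lines in the shared last bin, and in Soat1 the order of the groups reverses in the last bin.

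The LXR receptors differed in level and in response. Nr1h2, which encodes LXR beta, rose from 150.4, 152.3 and 130.7 CPM to 241.5, 226.7 and 226.1 CPM with no overlap (log2 0.68 ± 0.11 SE, adjusted p = 0.00032). Nr1h3, which encodes LXR alpha and is counted with Gm13783, was at 11.23, 13.31 and 10.15 CPM in control and 11.89, 14.4 and 10.57 CPM with EVs, with overlapping groups. Its log2 change was 0.09 ± 0.15 SE (adjusted p = 0.633), and it turned to -0.28 with library totals alone and to -0.03 with upper-quartile scaling. Per length Nr1h3 was 0.0780, 0.0912 and 0.0810 of Nr1h2 in control and 0.0514, 0.0663 and 0.0488 with EVs (exact permutation p = 0.1, the smallest possible), and on the largest bin of each gene 0.162, 0.165 and 0.168 against 0.0813, 0.105 and 0.102. The ratio thus depends on how bins are summed, but by either measure LXR beta was the more abundant receptor transcript in all 6 libraries.

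The 4 LXR targets and efflux genes did not move together. Abca1, the pump that loads sterol onto lipid-poor apolipoproteins (chr4:53030787-53159895), rose from 855.4, 521.0 and 1101 CPM to 1885, 1532 and 2451 CPM (log2 1.24 ± 0.27 SE, adjusted p = 0.00229). All EV-treated libraries lay above the controls, which themselves spread widely. Abcg1, the pump that hands sterol to mature lipoproteins, fell from 365.5, 299.4 and 380.1 CPM to 162.3, 171.3 and 177.8 CPM (log2 -1.03 ± 0.12 SE, adjusted p = 4.8e-05). In control the pumps stood at a like level per length, 79.7 and 85.7 RPKM, and with EVs at 188.8 and 41.9 RPKM.

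Mylip, the ligase that marks lipoprotein receptors for breakdown, went from 106.1, 79.48 and 101.4 CPM to 74.83, 69.69 and 74.22 CPM (log2 -0.39 ± 0.12 SE, adjusted p = 0.018). That call ended without control A or EV-treated B (adjusted p = 0.0703 and 0.0512) and on the gene's largest bin (0.183). Pltp, which transfers phospholipid between lipoproteins, fell from 390.2, 389.8 and 327.6 CPM to 115.3, 109.9 and 105.0 CPM (log2 -1.75 ± 0.12 SE, adjusted p = 8.7e-07). Its 3′ end overlaps Ctsa, a lysosomal gene on the opposite strand that rose (log2 0.42 ± 0.12 SE, adjusted p = 0.0116), and on free bins Pltp fell further, from 282.2, 282.1 and 233.2 CPM to 66.36, 64.23 and 55.59 CPM (log2 -2.11 ± 0.12 SE, adjusted p = 3.27e-07). The 3 promoters with the shared repeat thus stood by genes that read apart: Abca1 rose, the internal first exon of Srebf1 lost usage, and Fasn, the fatty acid synthase, fell from 58.04, 58.3 and 70.36 CPM to 23.38, 18.85 and 25.97 CPM (log2 -1.45 ± 0.14 SE, adjusted p = 1.18e-05).

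Among genes of sterol esters, transport and oxysterol, the enzymes moved and the carriers passed no test. Lipa, the lysosomal acid lipase that frees cholesterol from its esters (chr19:34492318-34527474), fell from 813.3, 930.7 and 954.4 CPM to 140.6, 138.1 and 130.2 CPM, 6.60-fold (log2 -2.72 ± 0.12 SE, adjusted p = 6.86e-08). Soat1, which makes the esters again, rose from 513.1, 484.5 and 606.8 CPM to 936.6, 825.5 and 987.2 CPM (log2 0.78 ± 0.13 SE, adjusted p = 0.000545). The groups did not overlap in either. Per length Lipa stood at 302.9 and Soat1 at 54.6 RPKM in control, against 45.9 and 93.6 RPKM with EVs, a reversed order. The Soat1 level is held down by its long, thinly covered last bin: the other Soat1 bins had medians of 228.5 CPM per kb in control and 402.1 with EVs. A median over bins is not the same measure as RPKM, and none was taken for Lipa. The size of the gap between these genes is therefore not settled.

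Ch25h, which makes 25-hydroxycholesterol, an oxysterol (chr19:34473786-34475135), went from 32.48, 20.23 and 26.82 CPM to 3.53, 3.402 and 4.04 CPM, 7.25-fold lower (log2 -2.86 ± 0.18 SE, adjusted p = 6.9e-07). Its single bin shares bases with Gm26902 on the opposite strand. On exons of its own, Gm26902 held 160, 102 and 191 counts in control and 203, 206 and 286 with EVs, so the part of Gm26902 outside the overlap did not go down with Ch25h. Npc2, which takes cholesterol from vesicles to Npc1 in the lysosome, was the most abundant of the 34 genes per length with EVs, at 356.1 RPKM. It was at 1038, 935.1 and 763.2 CPM in control and 1153, 1368 and 962.8 CPM with EVs (log2 0.35 ± 0.17 SE, adjusted p = 0.0893), its log2 change was -0.02 with library totals alone, and it passed the threshold without EV-treated C (adjusted p = 0.0388).

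Npc1, the membrane partner that exports the sterol, was at 288.8, 211.6 and 236.0 CPM in control and 190.1, 152.3 and 219.7 CPM with EVs (log2 -0.39 ± 0.16 SE, adjusted p = 0.0571). It passed the threshold without control B or EV-treated C (adjusted p = 0.0258 and 0.0257). Stard4, a cytosolic sterol carrier, was at 5.23, 8.10 and 3.09 CPM in control and 3.75, 2.71 and 3.29 CPM with EVs (log2 -0.75 ± 0.31 SE, adjusted p = 0.0532), and without control C the change was -1.06 (adjusted p = 0.00275). The groups overlapped in all 3 of these carriers.

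**Figure D4:**
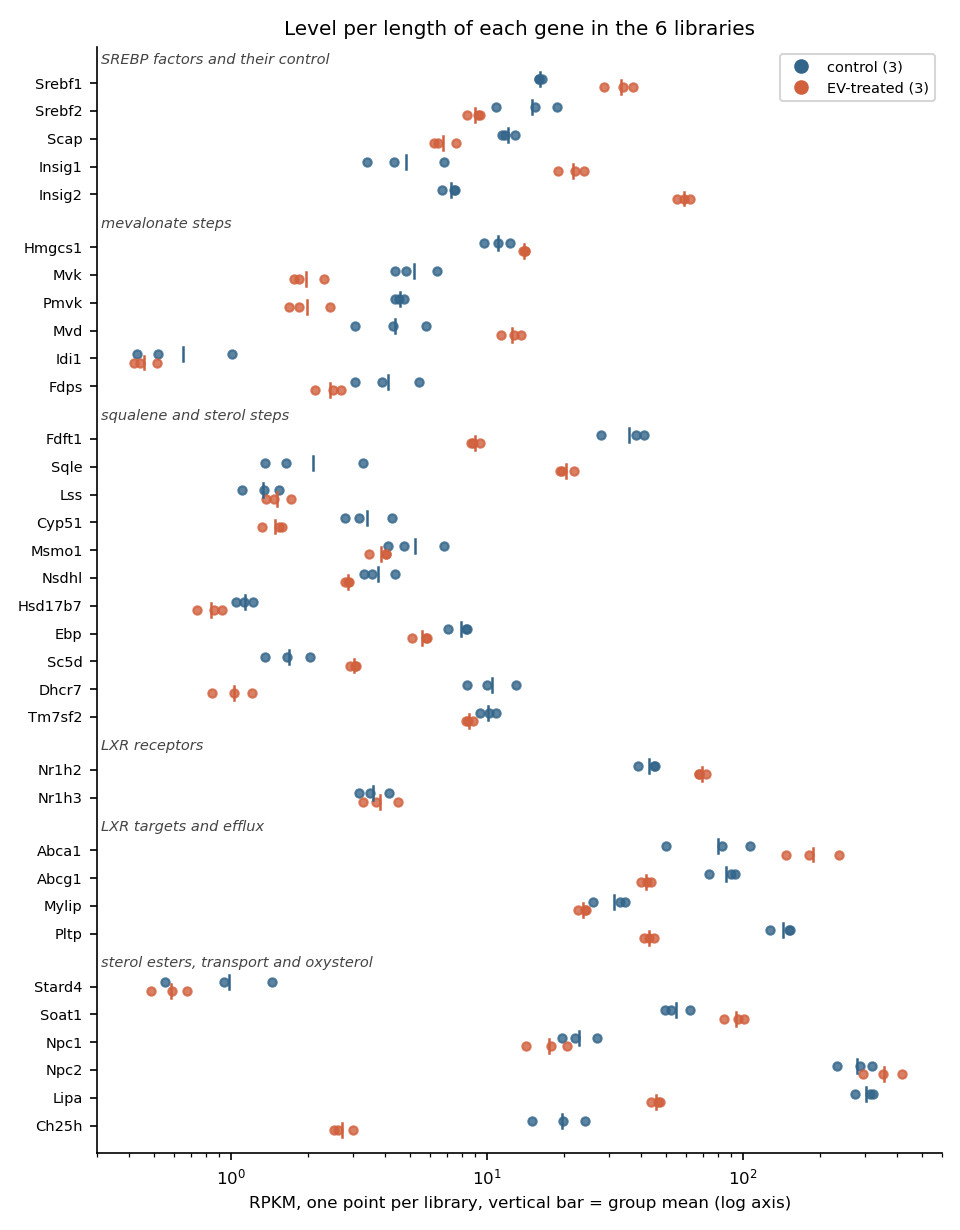
RPKM of each gene (x axis, log) in each of the 6 libraries, with a vertical bar at each group mean. Lipa leads in control at 302.9 RPKM and Npc2 with EVs at 356.1 RPKM, and Sqle, Insig2, Dhcr7 and Ch25h show the widest gaps between groups.

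Exon usage also differed at the 3′ ends of 2 genes that rose. The last bin of Soat1 (chr1:156424525-156429792, 5268 bases of 3′ UTR) held 9.68%, 9.58% and 7.15% of the gene's counts in control and 2.81%, 2.59% and 3.32% with EVs, a usage change of -1.57 (log2, adjusted p = 4.82e-17). In coverage it went from 8.23 to 9.43 CPM per kb down to 4.05 to 6.22, whereas the 19 other Soat1 bins of at least 50 bases and 50 counts on average had log2 ratios of 0.75 to 2.11. The last bin of Sc5d (chr9:42251595-42254732, 3138 bases of 3′ UTR) held 19.0%, 19.0% and 19.2% of the counts in control and 8.41%, 10.8% and 9.39% with EVs (usage -0.99, adjusted p = 0.000969), and its own log2 ratio was -0.16 against 0.79 to 1.25 in 7 other bins. The rise of both genes was thus carried by bins before the distal part of the 3′ UTR, and both calls were kept without any single library.

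The other called bins were smaller in number of counts or shared. In Nr1h2 3 neighbouring bins lost usage, led by chr7:44552246-44552343, annotated only in noncoding transcripts (usage -0.98, adjusted p = 0.00134), which missed the threshold without EV-treated A (adjusted p = 0.0652). Lss had 2 such bins at its 3′ end, led by chr10:76555480-76556618, also noncoding (usage -1.18, adjusted p = 0.0196), whose call ended without control A, control B, EV-treated A or EV-treated B (adjusted p = 0.13, 0.178, 0.189 and 0.104). In Tm7sf2 4 bins lost usage within the joined entry, led by the coding bin chr19:6067163-6067319 (usage -1.37, adjusted p = 0.00293), which missed the threshold without control B (adjusted p = 0.0631). In Pltp the last bin, shared with Ctsa (chr2:164839518-164839828), gained usage (1.27, adjusted p = 4.14e-11), from between 11.8% and 13.2% of the counts to between 28.3% and 31.8%. A further 2 bins of Pltp lost usage and 2 of Soat1 gained it.

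The other genes of the pathway, 88 in 7 lists, gave 19 higher and 32 lower among 84 tested. These were 22.6% and 38.1%, against 33.0% and 33.5% of all entries. On bins free of other genes these counts were 18 and 34, where 32.8% of all entries were higher and 33.3% lower. In the machinery that cuts and holds SREBP, 3 of 12 rose and 5 fell (25% and 41.7%). But 1 of the 3, Paqr3 (log2 0.46, adjusted p = 0.0193), shares 81.1% to 95.0% of its counts with exons of Bmp2k and was lower on its free bins (log2 -1.01, adjusted p = 0.0019). It is named for this turn, after its values were seen. Rnf145, a ligase that acts on Scap, rose 4.51-fold (log2 2.17) and Erlin1, an Insig partner, more modestly (log2 0.59), whereas the proteases that free SREBP, Mbtps1 and Mbtps2, fell (log2 -0.84 and -0.65), the latter counted with Yy2. In the isoprenoid branches 6 of 13 rose and 2 fell (46.2% and 15.4%), and Fntb, which passed no test, was lower on free bins (log2 -0.56, adjusted p = 0.0043). Nus1, of dolichol synthesis, went up (log2 1.13) along with Ggps1, which makes geranylgeranyl diphosphate (log2 1.42). Coq2, of ubiquinone synthesis, and Fnta, a prenyltransferase subunit, went down (log2 -0.85 and -0.77). Of the sterol transfer proteins 5 of 16 were higher, among them Gramd1a (log2 1.78) and Gramd1c (log2 2.79), and 5 lower, among them Osbpl2 (log2 -1.15) and Stard3nl (log2 -1.20). Each of these shares, 31.2%, was near that of all entries.

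Of the LXR partners and coregulators 3 of 11 fell (27.3%, against 33.5% of all entries) and none rose (against 33.0%). Among those that fell were Rxra, the dimer partner of LXR (log2 -0.58), and Ncoa2, a coactivator (log2 -1.50). Lipogenic targets of LXR and SREBP-1 were mostly lower, 8 of 12 tested (66.7%). The smallest p among them belonged to Fasn and to Lpcat3, which remodels phospholipids (log2 -0.95), and the widest fall to the low-level Mlxipl, a glucose-sensing factor (1.94 CPM on average in control and 0.0477 CPM with EVs, log2 -5.29). Higher were Me1 and Acly, which supply reducing power and acetyl-CoA (log2 1.67 and 0.45). Of the 6 oxysterol and bile acid enzymes tested 1 fell, Cyp27a1, which makes 27-hydroxycholesterol, from 9.92, 12.19 and 11.66 CPM to 0.194, 0.475 and 0.187 CPM (log2 -5.31 ± 0.32 SE). Both oxysterol-making enzymes named here, Ch25h and Cyp27a1, were therefore lower in every EV-treated library than in any control.

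In the list of ester turnover, lipoprotein receptors and transporters, 3 of 14 rose and 8 fell (21.4% and 57.1%, against 33.0% and 33.5% of all entries). Vldlr, a lipoprotein receptor, had 7, 3 and 9 counts in control and 585, 562 and 619 with EVs (log2 6.81 ± 0.27 SE), and its relative Lrp8 rose 5.41-fold (log2 2.44). Nceh1, a second cholesterol ester hydrolase, and Scarb2, a lysosomal membrane receptor, fell (log2 -1.41 and -1.57), the same direction as Lipa. Apart from Paqr3 and Fntb, the pathway genes named with a direction had adjusted p of 0.00393 or less.

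**Figure D5:**
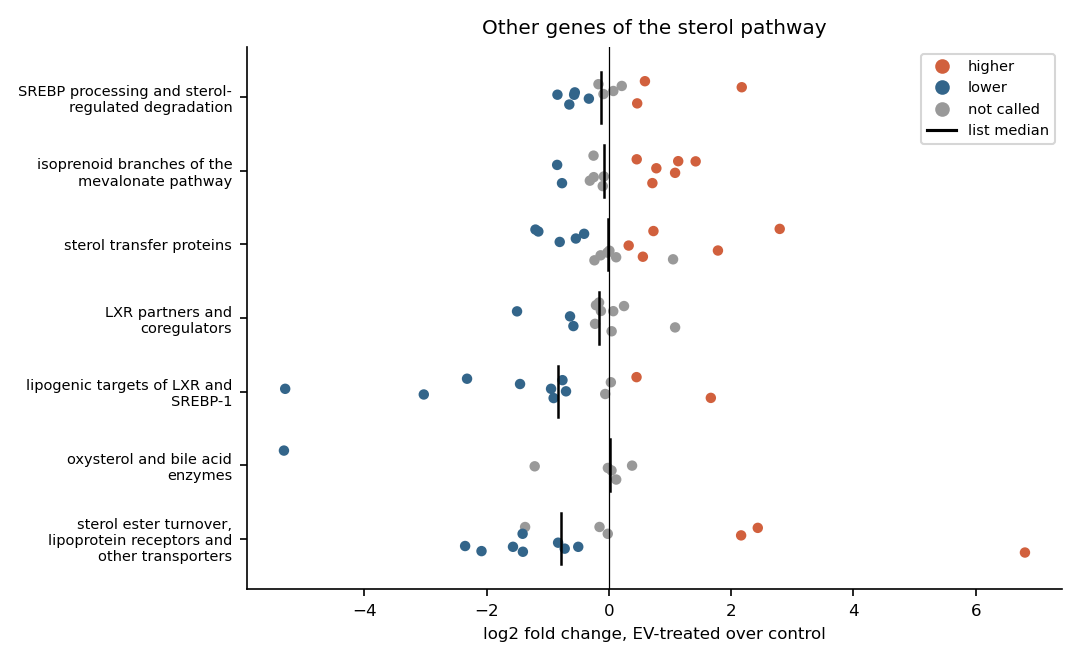
Log2 fold change (x axis) of the 84 tested pathway genes by list (rows), coloured by call, with a black bar at each list's median. Medians lie near 0 except in the lipogenic list (-0.83) and the list of ester turnover, receptors and transporters (-0.78).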

How the data were processed

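Polyadenylated RNA extracted with Trizol was prepared with the NEBNext Ultra kit and read in pairs, per the labels' protocols. Trimmomatic 0.36, STAR, Subread and DESeq2 on GRCm38 appear in the submitters' processing notes; no source used here states the annotation or strand setting. The deposited values are raw counts per exon bin, not normalized, per the file headers. A read may count in more than 1 bin, so sums are not numbers of molecules.

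Counts were summed over 425461 bins into 48005 entries, 1194 of which join several genes. All 3 control and 3 EV-treated libraries entered the fits: filterByExpr, TMM, glmQLFit and glmQLFTest (edgeR 4.0.16, R 4.3.3), with no covariate, 2-sided, threshold 0.05. SEs are on the log2 scale. Bin usage was tested with diffSpliceDGE. RPKM used summed bin lengths. Ratios of paralogs used exact permutation tests in R, and the share of the internal Srebf1 first exon used such a test in scipy 1.17.1. On simulated data with 15735 genes, 66.0% to 94.0% of genes changed by log2 1 or 2 in either direction were recovered. Only 44 to 50 genes were changed at each size and direction there, whereas 66.5% of entries were called in these data. The recovery rates therefore may not hold for these data. Bins were set against GENCODE vM21 exons with bedtools 2.31.1. Alternatives were other scalings, filters, DESeq2 1.42.0, limma 3.58.1, the largest bin per gene, single-gene entries, each library left out and, added after seeing the data, bins free of other genes. The members and lists were chosen with earlier results of these data known. Named were all members, up to 2 genes per direction and pathway list with the smallest p, the called bin with the smallest p in each member, and the Srebf1 first exons; Fasn also for its promoter, and Paqr3, Fntb, Mlxipl, the neighbours Ctsb, Ctsa and Gm26902 and the markers after their values were seen.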

Additional observations from a re-analysis of the deposited data

How the results depend on the processing

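Scaling by library totals alone moved the median log2 change of all entries to -0.38 and upper-quartile scaling moved it to -0.14, and calls split into 3910 higher and 7585 lower, or 4916 and 6232, against 5482 and 5555 with TMM; other pathway genes lower then numbered 52 with library totals alone, against 32. With library totals alone the log2 change turned for Hmgcs1 (-0.024), Lss (-0.18), Nr1h3 (-0.28) and Npc2 (-0.020), with upper-quartile scaling for Nr1h3 (-0.034), with the largest bin for Lss (-0.20) and Nr1h3 (-0.15), with free bins for Fdft1 (0.46) and the pathway genes Paqr3 (-1.01) and Osbpl9 (-0.004, not called), and without control C or EV-treated B for Nr1h3 (-0.018 and -0.038, with a range of -0.038 to 0.18 over single libraries left out). The usage of 2 Srebf1 bins that passed no test turned when 1 library was left out, with ranges of -0.022 to 0.096 (bin at 60206838, below 0 without control C or EV-treated C) and -0.053 to 0.052 (bin at 60220453, below 0 without EV-treated A). In all alternatives 9 to 11 members were higher and 13 to 21 lower. Leaving out 1 library gave 9 to 11 and 13 to 20, 10190 to 10918 changed entries in all against 11037, and 17 to 27 member bins against 24. Deviations from the group means correlated at 0.03, 0.36 and 0.30 between control and EV-treated samples of the same letter (A, B and C). Between samples of different letters the correlations were -0.376 to 0.0465. Whether the letters pair the samples was not tested, and the main fits took the samples as unpaired. With the letter as a block, 11609 entries, 11 members higher, 19 lower and 36 member bins passed. The precision is limited by 3 libraries per group and, for the internal Srebf1 exon and Vldlr in control, by few counts.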
